A study of Mus musculus with 13 samples.

Results

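The genes described here make, break down and respond to cyclic AMP (cAMP). They comprise 9 adenylyl cyclases, 15 phosphodiesterases, 2 catalytic and 4 regulatory subunits of protein kinase A (PKA), 3 PKA inhibitors, 1 PKA anchor, 2 cAMP-activated exchange factors of the Epac type and 4 genes of the CREB transcription factor family and its coactivators. Members were chosen by gene symbol, and all 40 were found among the 22682 symbols that the 13 deposited count tables share.

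The tissue was the medial habenula of adult mice above 8 weeks of age. All animals carried the Chat-TRAP DW167 transgene, and the knockout animals (Gpr151-KO::Chat-TRAP DW167) also carried the knockout of Gpr151, an orphan G protein-coupled receptor. The transgene tags ribosomes with GFP in cells that use the cholinergic gene Chat, and polysomes pulled down with anti-GFP beads (immunopurified, IP) carry the mRNA of those cells. Each genotype had 6 IP libraries, and 1 further library held total RNA of wild-type homogenate before purification (input). Each library was made from 4 pooled mice, or 3 for libraries 852 and 855, so that replicates are separate pools of animals. The labels give no treatment, although saline appears in most table names and saccharin in the name of the input's. A lower level in such material can come from fewer cells of a type or from less RNA per cell, which cannot be told apart.

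Adenylyl cyclases convert ATP to cAMP and are stimulated or inhibited by G proteins, and the isoforms differ in their response to calcium. Phosphodiesterases hydrolyse cAMP, cGMP or both. cAMP releases the catalytic subunits of PKA from the regulatory subunits, opens the Epac exchange factors that load Rap GTPases, and through PKA phosphorylates CREB. In medial habenula neurons, which release acetylcholine and glutamate onto the interpeduncular nucleus, Gpr151 is thought to act through inhibition of this pathway, and the comparison of genotypes bears on whether its transcripts differ in the knockout.

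Levels are given as counts scaled to the library's total over shared genes (CPM), or per kilobase of exon (RPKM) where genes are compared with each other. Gene counts ran from 28375912 to 64388596 per library, and 3 counts, the limit that a count of 0 allows, equalled 0.0502 to 0.121 CPM in an IP library (counting error only). Gpr151 itself stood at 382 to 589 CPM in the wild-type IP and at 121 to 212 CPM in the knockout IP, with no overlap. Gpr151 counts were thus lower in knockout IP but not absent, and above the 66.2 CPM of the wild-type input. Of 18 medial habenula markers, 14 were at least 2-fold above input in every wild-type IP library, Chat among them. The 12 oligodendrocyte markers summed to 163 to 823 CPM in wild-type IP, 218 to 1567 in knockout IP and 3375 in the input. Oligodendrocyte RNA was thus lower in IP than in the input but present in each library. Endothelial and mural markers reached 74.1 CPM in knockout IP, above the 57.0 CPM of the input. Striatal markers reached 53.5 CPM in wild-type IP, above the 49.4 CPM of the input. The remaining marker lists of other cells summed below the input in every IP library. Libraries 1099 and 1102 (knockout) and 1091 (wild type) stood highest in a score of non-neuronal markers, the mean log2 CPM of the astrocyte, oligodendrocyte, precursor, microglial and endothelial lists, with 3.54, 3.20 and 2.84 against 0.453 to 2.14 in the other IP libraries.

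IP and input differed in the isoforms they carried. In every wild-type IP library the level of Pde2a, Pde1a, Prkar2a and Rapgef4 was at least 2 times the input (each value plus 1 CPM). By the same rule Adcy1, Adcy5, Adcy7, Pde1b, Pde1c, Pde3a, Pde7b, Pde8a and Crem were at or below 0.5 times the input in every library. These are 4 and 9 of the 38 members with at least 5 CPM in the input or as mean of the wild-type IP libraries, and 25 were neither. Over all 11434 genes at that level, 538 (4.71%) were enriched and 1274 (11.1%) depleted. The median log2 ratio was -0.21 over the 38 members and -0.07 over all genes. Adcy4, at 0 to 0.676 CPM in wild-type IP, and Pde4c, at 0 to 0.0994 CPM, did not reach that level.

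There is 1 input library, so these calls rest on size and carry no test. The input was counted against 37328 symbols, the earlier IP libraries (682, 683, 852 and 855) against 32531 and the later ones against 24454. TMM scaling, which moved the median log2 ratio of all genes by 0.22, gave 6 enriched and 7 depleted members, adding Adcy9 and Prkar2b and losing Adcy1 and Pde1c, where 6.24% and 8.14% of 11272 genes were enriched and depleted.

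**Figure D1:**
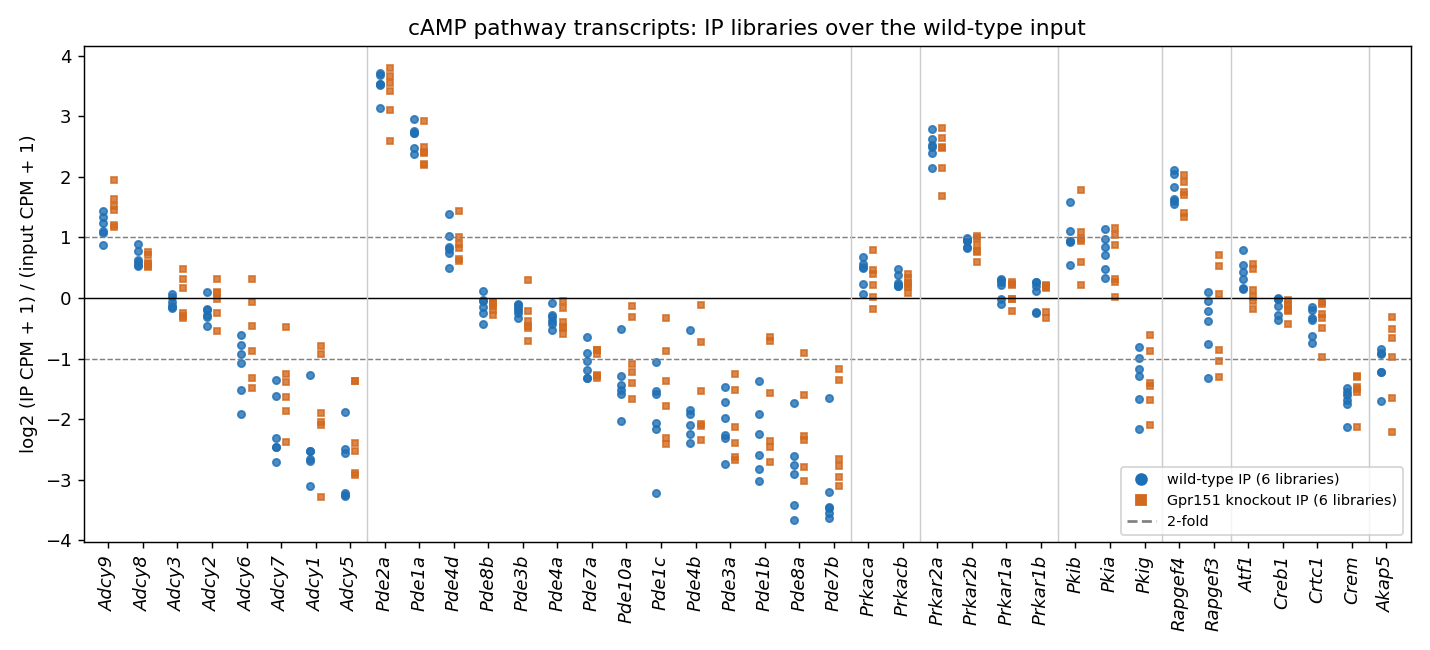
Log2 ratio of IP over input (CPM plus 1) for the 38 members at or above 5 CPM, grouped by family, with 1 point for each wild-type (circles) and knockout (squares) IP library and the same single wild-type input below every point. Pde2a, Pde1a, Prkar2a and Rapgef4 lie above the 2-fold line in all 12 libraries, and Adcy5, Pde3a, Pde7b and Crem below it in all 12.

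The promoters of the 4 enriched members are shown because these transcripts were above the input in every IP library. For each, the 100 bases before the most upstream start in the RefSeq promoter windows of GRCm38.p6 are printed 5′ to 3′ on the gene's strand, at chr7:101421591-101421690 (plus strand) for Pde2a, chr2:80129413-80129512 (minus strand) for Pde1a, chr9:108692043-108692142 (plus strand) for Prkar2a and chr2:71981115-71981214 (plus strand) for Rapgef4. These RefSeq starts need not be those of the GENCODE gene models, and the stretches of Prkar2a and, in part, Pde1a lie inside the GENCODE gene bounds given for these genes elsewhere. Capitals would mark the partial cAMP response site described next. The printed stretches hold none in full. Windows at other starts of Pde2a and Pde1a hold it, and in Prkar2a it spans the end of the printed stretch.
Pde2a: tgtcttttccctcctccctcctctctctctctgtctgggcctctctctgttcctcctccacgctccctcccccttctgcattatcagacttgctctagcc
Pde1a: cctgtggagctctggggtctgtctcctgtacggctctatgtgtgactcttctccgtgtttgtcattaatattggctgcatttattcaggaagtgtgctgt
Prkar2a: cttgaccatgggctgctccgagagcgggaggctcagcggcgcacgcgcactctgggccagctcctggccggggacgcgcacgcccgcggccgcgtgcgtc
Rapgef4: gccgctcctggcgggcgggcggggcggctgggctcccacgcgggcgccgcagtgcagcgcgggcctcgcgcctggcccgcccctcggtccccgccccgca

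CREB binds the cAMP response element, whose full letters TGACGTCA read the same on both strands. Windows of 300 bases (250 before and 50 after a start) were searched, and 33 of the 40 members had at least 1. The full element stood in 588 of 32851 windows (1.79%) and in 2 of the members' 73 windows, both of Prkar1a and both at the same site. That site is printed for the only member that holds it, at chr11:109650889-109650918 (plus strand), with the element in capitals, 49 bases before a start:
Prkar1a: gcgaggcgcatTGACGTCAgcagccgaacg
Prkar1a, whose product holds the catalytic subunits inactive until cAMP binds, was near the input level in IP. A partial site, TGACG or CGTCA on the opposite strand and contained in the full element, stood in 24.7% of the members' windows and in 20.8% of all windows. These matches describe letters only.

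Among the 9 adenylyl cyclases Adcy8 led by mean RPKM in wild-type IP and Adcy1 led in the input. Per library, Adcy8 led in 5 of 6 wild-type and 3 of 6 knockout IP libraries, Adcy1 led as in the input in libraries 1091, 1099 and 1102, which stood highest in non-neuronal markers, and Adcy9 led in library 855. Adcy8, a cyclase stimulated by calcium and calmodulin, had 34.1% ± 5.85 (SD, n = 6) of the family's RPKM in wild-type IP against 11.3% in the input, where Adcy1 and Adcy5 stood above it. Adcy1, also stimulated by calcium and calmodulin, made up 17.1% ± 6.54 in wild-type IP and 48.3% in the input. Its RPKM range in wild-type IP (3.58 to 12.99) overlapped that of Adcy8 (10.7 to 13.8). Adcy9, a cyclase that is only weakly sensitive to forskolin, made up 23.0% ± 2.75 against 5.21% in the input. Summed over the family, cyclase RPKM was 34.95 ± 4.53 in wild-type IP, 43.0 ± 9.08 in knockout IP and 65.2 in the input, with no test.

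Adcy8, at chr15:64697084-64922296, had a lowest, median and highest level of 86.9, 91.8 and 112 CPM in wild-type IP and of 85.6, 89.3 and 102 CPM in knockout IP, with 59.9 CPM in the input. Every IP library lay above the input, by 0.51 to 0.90 on the log2 scale, and the genotypes overlapped. Its RPKM was above that of Adcy9 in 6 of 6 wild-type and 4 of 6 knockout libraries. Adcy9 stood at 33.2, 41.2 and 49.6 CPM in wild-type IP and at 41.1, 51.1 and 70.9 CPM in knockout IP, against 17.7 CPM in the input. All 6 knockout libraries were at least 2-fold above the input, and not all wild-type libraries were, the lowest log2 ratio being 0.87.

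Adcy1 stood at 44.8, 64.5 and 163 CPM in wild-type IP, at 39.5, 99.8 and 226 CPM in knockout IP and at 394 CPM in the input. Its highest values, 163, 208 and 226 CPM, were those of libraries 1091, 1099 and 1102, which stood highest in non-neuronal markers. Adcy5, the main cyclase of the striatum, stood at 8.80, 12.0 and 24.5 CPM in wild-type IP, at 11.4, 16.1 and 35.6 CPM in knockout IP and at 93.3 CPM in the input. The same libraries were again the highest, and all 12 were at most 0.5 times the input. Adcy7, known from immune cells and microglia, stood at 0.362, 0.699 and 2.45 CPM in wild-type IP, at 0.703, 2.12 and 5.37 CPM in knockout IP and at 7.87 CPM in the input.

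The other cyclases differed less from the input. Adcy2 and Adcy3 had median log2 ratios of -0.24 and -0.09 in wild-type IP, and Adcy6, a calcium-inhibited cyclase close to Adcy5, had ratios from -1.91 to -0.61. By RPKM the order in wild-type IP was Adcy8, Adcy9, Adcy1, Adcy2, Adcy5, Adcy3, Adcy6, Adcy7 and Adcy4. The ranges of the neighbours Adcy9 and Adcy1, Adcy1 and Adcy2, Adcy5 and Adcy3, and Adcy7 and Adcy4 overlapped.

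**Figure D2:**
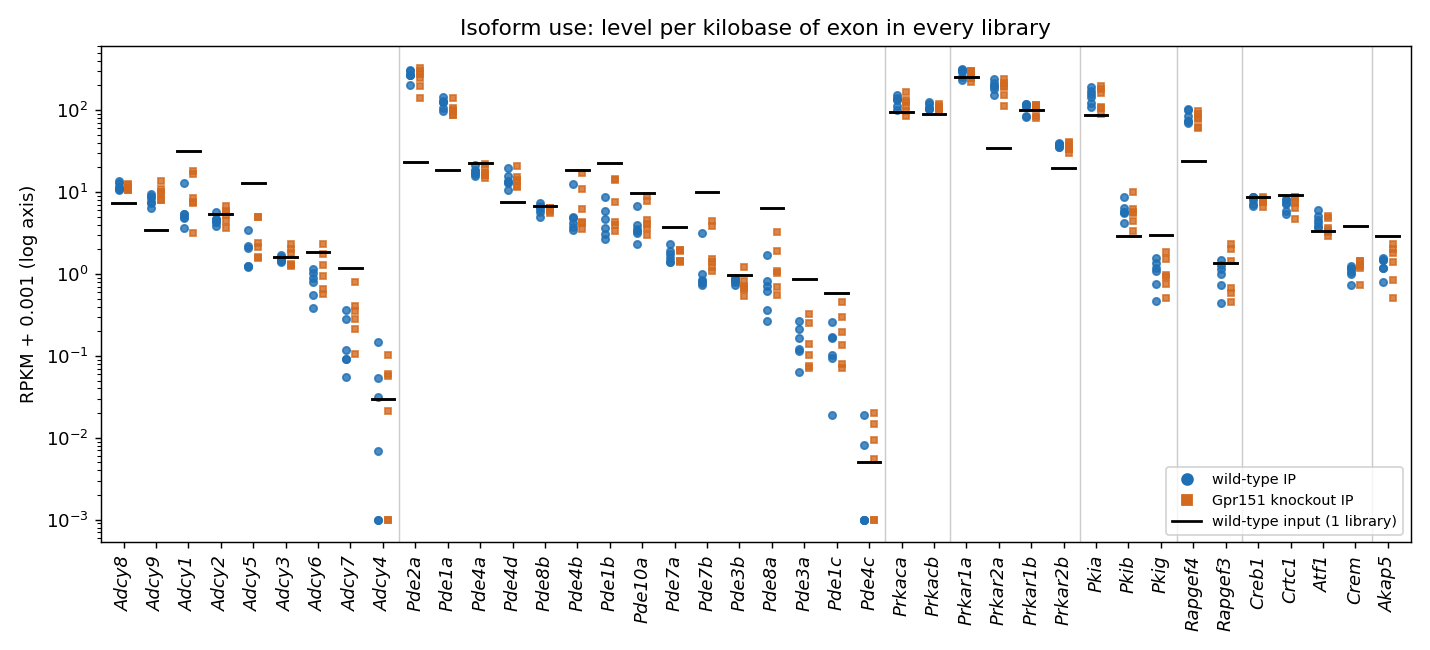
RPKM of all 40 members in every library (log axis, 0.001 added), ordered within each family by the mean in wild-type IP (circles), with knockout IP (squares) and the single input (bar). Pde2a and Pde1a exceed the other phosphodiesterases in all 12 IP libraries, Adcy1 lies below its input level in all 12, and Adcy4 and Pde4c lie near 0.

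A pair of phosphodiesterases made up most of the family's RPKM in IP. Pde2a, a dual cAMP and cGMP phosphodiesterase that cGMP stimulates, and Pde1a, which calcium and calmodulin activate, together with the 13 other genes gave 446 ± 24.4 RPKM in wild-type IP, 415 ± 62.1 in knockout IP and 152 in the input. Pde2a made up 59.9% ± 5.87 of it in wild-type IP and 15.2% in the input. Pde1a made up 27.0% ± 3.74 and 12.3%. Pde4a and Pde4d, cAMP-specific enzymes and the targets of rolipram, followed with 4.02% ± 0.468 and 3.22% ± 0.853 of the wild-type IP total.

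Pde2a, at chr7:101421691-101512827 on GRCm38, stood at 1258, 1648 and 1870.5 CPM in wild-type IP, at 859, 1602 and 1973 CPM in knockout IP and at 142 CPM in the input. All 12 libraries were far above the input, the lowest was library 1099, and the genotypes overlapped. The median log2 ratio to input was 3.53 in wild type (3.14 to 3.71) and 3.49 in knockout (2.59 to 3.79). The gene model Gm45837 covers 64.3% of the exons of Pde2a on the same strand and has no entry of its own in any of the 13 tables.

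Pde1a, at chr2:79834453-80129458, stood at 584, 747 and 875 CPM in wild-type IP, at 520, 597 and 851 CPM in knockout IP and at 112 CPM in the input. All 12 libraries were above the input by at least 2.20 on the log2 scale, and the genotypes overlapped. The median log2 ratio was 2.73 in wild type and 2.40 in knockout. Its relatives of the same calcium-activated group lay on the other side of the input, at -2.42 for Pde1b and -1.82 for Pde1c in wild type.

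Pde1b, a phosphodiesterase abundant in striatum, stood at 14.3, 22.4 and 46.8 CPM in wild-type IP, at 18.0, 31.9 and 78.7 CPM in knockout IP and at 123 CPM in the input. Pde7b, a cAMP-specific enzyme, stood at 9.10, 10.4 and 38.7 CPM in wild-type IP, at 13.5, 18.1 and 54.9 CPM in knockout IP and at 124 CPM in the input. Pde8a, a cAMP-specific enzyme of high affinity, stood at 1.09, 2.72 and 6.91 CPM in wild-type IP, at 2.24, 4.29 and 13.2 CPM in knockout IP and at 25.4 CPM in the input. For each of these, libraries 1091, 1099 and 1102 were the highest, all 12 lay below the input, and the genotypes overlapped.

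The remaining depleted phosphodiesterases were low in IP. Pde3a, an enzyme that cGMP inhibits, stood at 0.805, 1.80 and 3.37 CPM in wild-type IP, at 0.882, 1.52 and 4.09 CPM in knockout IP and at 11.1 CPM in the input. Pde1c stood at 0.362, 2.66 and 5.13 CPM in wild-type IP, at 1.41, 3.31 and 9.21 CPM in knockout IP and at 11.8 CPM in the input. At these levels the call depends on the pseudocount, since Pde3a, Pde1c and Adcy7 were no longer called with 5 CPM added.

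Pde4b and Pde10a, the second a dual enzyme best known from striatal neurons, had median log2 ratios of -2.01 and -1.48 and missed the call through library 1091. Without library 1091 both were called, giving 11 depleted members. Pde4d lay above the input (0.83), Pde8b, Pde3b and Pde4a lay near it (-0.10, -0.19 and -0.35), and Pde7a lay at -1.11 and missed the call.

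PKA transcripts were abundant in both materials, and Prkar2a was the only PKA subunit called enriched. The catalytic subunits Prkaca and Prkacb shared their family's RPKM almost evenly, with 53.6% ± 4.51 for Prkaca in wild-type IP and 51.3% in the input. Prkaca led in 4 of 6 wild-type libraries, the ranges overlapped, and with the longest transcript as length Prkacb led. Prkaca stood at 247, 336 and 377 CPM in wild-type IP, at 208, 294 and 412 CPM in knockout IP and at 237 CPM in the input. Its value is uncertain, since the annotation holds a processed pseudogene of Prkaca.

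Prkar2a, the type II regulatory subunit that anchoring proteins tether, lies at chr9:108689314-108750436. It stood at 976, 1247 and 1513 CPM in wild-type IP, at 704, 1232 and 1543 CPM in knockout IP and at 219 CPM in the input. All 12 libraries were above the input, by a median log2 ratio of 2.50 in wild type (2.15 to 2.78) and 2.49 in knockout, and the genotypes overlapped. Its share of regulatory subunit RPKM was 31.4% ± 3.71 in wild-type IP and 8.46% in the input.

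Prkar1a had the highest mean RPKM of the regulatory subunits in wild-type IP. It was above Prkar2a in 5 of 6 wild-type and 5 of 6 knockout libraries, and the wild-type ranges overlapped. Prkar1a stood at 1013, 1292 and 1358 CPM in wild-type IP, at 937, 1171 and 1310 CPM in knockout IP and at 1090 CPM in the input. Libraries lay on both sides of the input, and the share of the family was 45.7% ± 4.06 in wild-type IP and 62.2% in the input. Prkar1b, the neuronal type I subunit, made up 16.8% ± 1.94, and Prkar2b, the neuronal type II subunit, 6.06% ± 0.449. Prkar2b had a median log2 ratio of 0.94, just below the 2-fold line.

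The PKA inhibitor peptides block the free catalytic subunit and aid its export from the nucleus. Pkia held 95.4% ± 1.22 of their RPKM in wild-type IP and 93.7% in the input. It stood at 410, 559 and 720 CPM in wild-type IP, at 330, 501 and 722 CPM in knockout IP and at 325 CPM in the input. All 12 libraries were above the input, by 0.02 to 1.15 on the log2 scale. Pkib and Pkig had median log2 ratios of 0.94 and -1.23 in wild type and did not pass in every library. Akap5, the anchor that places PKA at the postsynaptic membrane, stood at 5.44, 9.01 and 10.7 CPM in wild-type IP, at 3.49, 10.9 and 15.9 CPM in knockout IP and at 19.9 CPM in the input, with every IP library below the input.

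Epac transcripts came almost wholly from 1 gene. Rapgef4 (Epac2, the neuronal form), at chr2:71981240-72257474, held 98.7% ± 0.608 of the RPKM of the pair in wild-type IP and 94.6% in the input. It stood at 466, 530 and 691 CPM in wild-type IP, at 404, 527 and 651 CPM in knockout IP and at 158 CPM in the input. All 12 libraries were above the input, by a median log2 ratio of 1.73 in each genotype, and with a fold of 3 required Rapgef4 was no longer called. Rapgef3 (Epac1) had a median log2 ratio of -0.30 in wild type, within a range of -1.33 to 0.09.

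No CREB family member was enriched. Creb1, the founding factor, stood at 93.8, 114 and 120 CPM in wild-type IP, at 89.2, 107 and 118 CPM in knockout IP and at 120 CPM in the input, and its RPKM share was 38.9% ± 2.96 against 34.9%. Crtc1, a coactivator of CREB, and Atf1, a close relative of CREB, had median log2 ratios of -0.34 and 0.37. The value of Atf1 is uncertain, since the annotation holds a processed pseudogene of it. Crem, whose gene also encodes the repressor ICER, stood at 4.35, 6.49 and 7.38 CPM in wild-type IP, at 4.34, 7.39 and 8.57 CPM in knockout IP and at 22.4 CPM in the input. All 12 libraries were at most 0.5 times the input, and the highest were libraries 683, 1099 and 1100.

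Knockout IP over the same wild-type input gave 5 enriched and 4 depleted members of 38, where 3.41% and 7.11% of 11399 genes were enriched and depleted. The 4 enriched members of wild type were enriched again, with Adcy9 added, and Adcy5, Pde3a, Pde7b and Crem were depleted. Both sets of ratios share the input library, so that they are no independent measurement of each other. Adcy1, Adcy7, Pde1b, Pde1c and Pde8a were not called in knockout, where each exceeded 0.5 times the input in library 1099.

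Genes with antisense or overlapping partners are uncertain, since the strand setting of the counting is not known. Partners listed only in the input cover 8.92% of the exons of Adcy6, 5.82% of Pde3a, 8.95% of Prkar1b, 5.05% of Rapgef4 and, in separate stretches, 3.73% and 5.54% of Rapgef3. These partners had 0 to 77 counts in the input. Cenpo, listed in all tables, covers 22.1% of Adcy3. Alignments counted as ambiguous between genes were 3.98% of all in the input, against 0.581% to 1.36% in the IP libraries.

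Genes next to these in the pathway were examined by list. Of 7 G proteins that act on adenylyl cyclase, 1 was enriched and 1 depleted. Gnas, the stimulatory subunit, stood at 2666 ± 311 CPM in wild-type IP and 20.9 CPM in the input, but lies in a locus of overlapping transcripts where the tables' different gene lists matter, so its ratio is uncertain. Gnao1, the most abundant of the list, had a median log2 ratio of 0.74, and Gnai1, an inhibitory subunit, of -2.76. Of 13 other cyclases and phosphodiesterases, 7 reached 5 CPM, of which Gucy1a3, a subunit of the nitric oxide receptor that makes cGMP, was enriched (785 ± 197 CPM against 126.7 in the input) and the cGMP phosphodiesterases Pde5a and Pde9a were depleted (-2.34 and -2.82).

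Of 5 PKA substrates that inhibit phosphatases, Ppp1r1b (DARPP-32) was enriched at 178 ± 37.4 CPM against 27.9 CPM in the input, and Arpp21 was depleted with a median log2 ratio of -3.24. Of 14 other CREB family members, coactivators and salt-inducible kinases, Sik1, a kinase that restrains CREB coactivators, was enriched (1.68), and Creb3l2 and Creb5 were depleted (-1.64 and -3.79). Of 14 other PKA anchors, 10 reached 5 CPM and only Akap7 was depleted (-2.50). Of 10 Rap and Popeye effectors, 7 reached that level and only Rap2b was depleted (-1.35). The most abundant genes of these lists, Ensa, Atf2, Akap9 and Rap2a, had median log2 ratios of 0.55, -0.31, -0.12 and 0.09.

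Between genotypes no member passed the test. In edgeR's quasi-likelihood test with the library set as a term, 0 of 38 tested members had an adjusted p under 0.05, where 2 of 14317 genes (0.014%) did, 1 of them Gpr151. DESeq2 likewise called 0 members, and 12 genes (0.0838%). At an unadjusted p under 0.05, edgeR had 1 member higher in knockout and 0 lower, where 2.16% of all genes were higher and 0.901% lower, and DESeq2 had 4 members higher and 0 lower, where 3.46% of all genes were higher and 1.1% lower. Of the 38 members, 21 had a log2 fold change above 0, with a median of 0.03 (all genes 0.002). The wild-type and knockout ranges overlapped for all 40 members, a count that was not made over all genes. In counts simulated with these library sizes and dispersions, the test recovered 60 of 100 genes changed 2-fold and 85 of 100 changed 4-fold. The changed genes were drawn from all genes. The simulation held no differences between library sets and no variation shared by genes, so these rates need not hold for the members.

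For the abundant isoforms the intervals were narrow. The log2 difference of knockout from wild type was -0.13 for Pde2a (95% interval -0.44 to 0.19), -0.21 for Pde1a (-0.50 to 0.09), -0.08 for Prkar2a (-0.39 to 0.23) and -0.09 for Rapgef4 (-0.39 to 0.21). It was -0.04 for Adcy8 (-0.23 to 0.16), -0.07 for Prkar1a (-0.28 to 0.14) and -0.03 for Creb1 (-0.22 to 0.16). Each of these intervals includes 0 and leaves out a 2-fold difference in either direction. They share the wild-type IP libraries with the ratios to input given above.

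The members with the smallest p were all higher in knockout on average. Adcy7 had a log2 difference of 1.23 (SE 0.50), with unadjusted p = 0.0300 and adjusted p = 0.999 by edgeR. The other values were 0.33 (SE 0.16) for Adcy9, 0.95 (SE 0.47) for Pde8a, 0.86 (SE 0.43) for Pde7b and 0.67 (SE 0.36) for Pde1b, none of which reached an unadjusted p under 0.05 in edgeR. Adcy7, Pde7b, Pde8a and Pde1b were depleted in wild-type IP over input, a ratio that shares the wild-type IP libraries with these differences. The knockout group held 2 of the 3 libraries with the highest non-neuronal score. Markers of GABAergic neurons, which the score does not hold, were higher in knockout on average as well: 6 of 6 tested had a log2 difference above 0 (median 1.09), 5 of 6 had an unadjusted p under 0.05 and 0 were called by edgeR or DESeq2. With the non-neuronal score as a further term the differences were 0.66 for Adcy7, 0.28 for Adcy9, 0.28 for Pde8a, 0.30 for Pde7b and 0.10 for Pde1b. Whether other cells account for these differences was not tested.

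**Figure D3:**
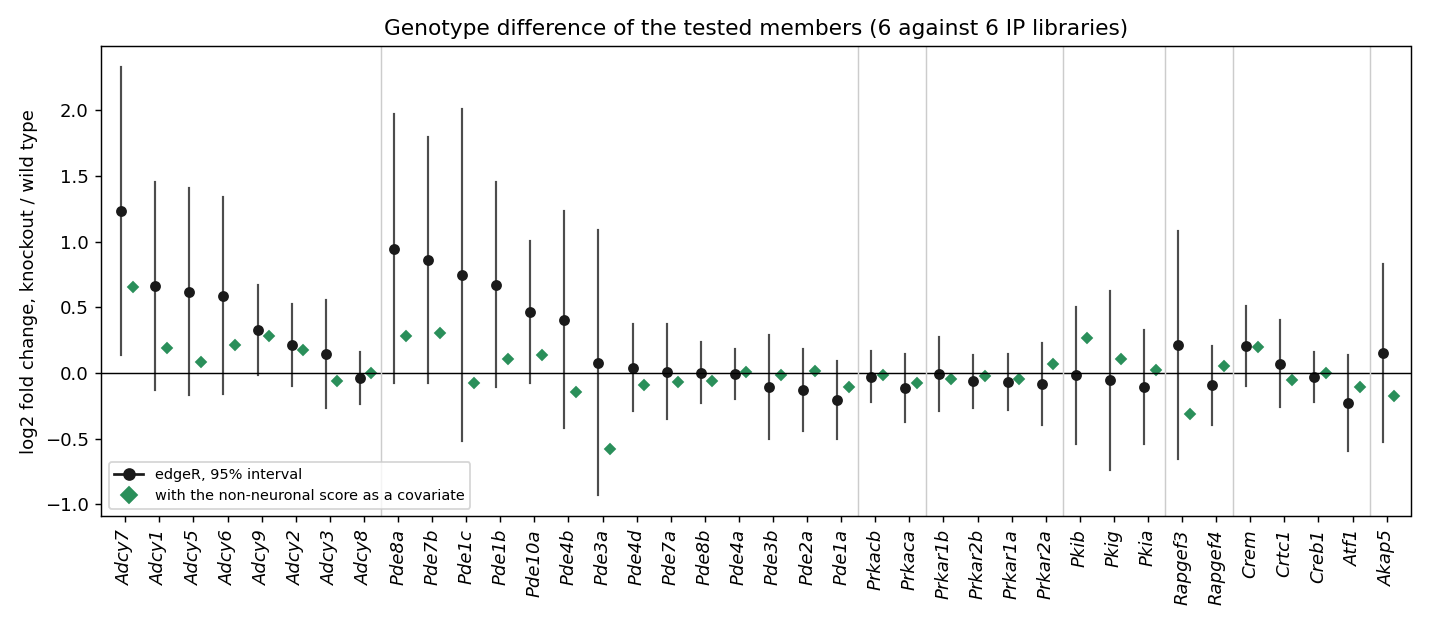
Log2 fold change of knockout over wild type for the 38 tested members, with 95% intervals (circles, edgeR with library set as a term) and the estimate after adding the non-neuronal score to the model (diamonds). All intervals but that of Adcy7 include 0, and the diamonds of Pde8a, Pde7b, Pde1b and Adcy1 lie nearer to 0 than their circles.

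Genotype differences were also compared between earlier and later libraries. The interaction passed for 0 of 38 members and 0 of 14317 genes in edgeR, with 0 members and 325 genes at an unadjusted p under 0.05, and the smallest p among members was that of Adcy6, 0.0698 unadjusted. DESeq2 was not run on the interaction. In the later libraries alone the differences were 0.98 (SE 0.38) for Adcy6 and 0.81 (SE 0.43) for Adcy1. In the pairs of earlier libraries the plain log2 difference of Adcy6 was 0.06 (683 less 682) and -0.66 (855 less 852). That of Adcy1 was -0.63 and 1.21.

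None of the genes in the lists of other pathway genes was called between genotypes by edgeR or DESeq2. Over those 6 pathway lists 1 gene had an unadjusted p under 0.05 in edgeR, Gucy1a3, with a log2 difference of -0.37 (SE 0.14), unadjusted p = 0.0223 and adjusted p = 0.999.

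A few libraries stood at an end of the range for many genes, 10 and 5 of the 40 members among them. Libraries 1091, 1099 and 1102 were the 3 highest IP libraries for 10 members, namely Adcy1, Adcy5, Pde1b, Pde1c, Pde3a, Pde4b, Pde7b, Pde8a, Pde10a and Rapgef3, and the 3 lowest for 5 members, namely Pde2a, Pde4a, Prkar2a, Pkib and Rapgef4. Over the 11434 genes 16.1% had these libraries highest and 18.4% lowest. In the same libraries the 12 astrocyte markers summed to 1132 to 2040 CPM against 178 to 588 in the other 9, and the 12 oligodendrocyte markers to 823 to 1567 CPM against 163 to 588. The 8 GABAergic markers summed to 192 to 387 CPM against 25.0 to 198, and the 6 striatal markers to 35.8 to 53.5 CPM against 25.8 to 36.0. The 18 medial habenula markers summed to 5176 to 6819 CPM against 7293 to 10761. The part of these other cells in the members' levels was not tested.

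**Figure D4:**
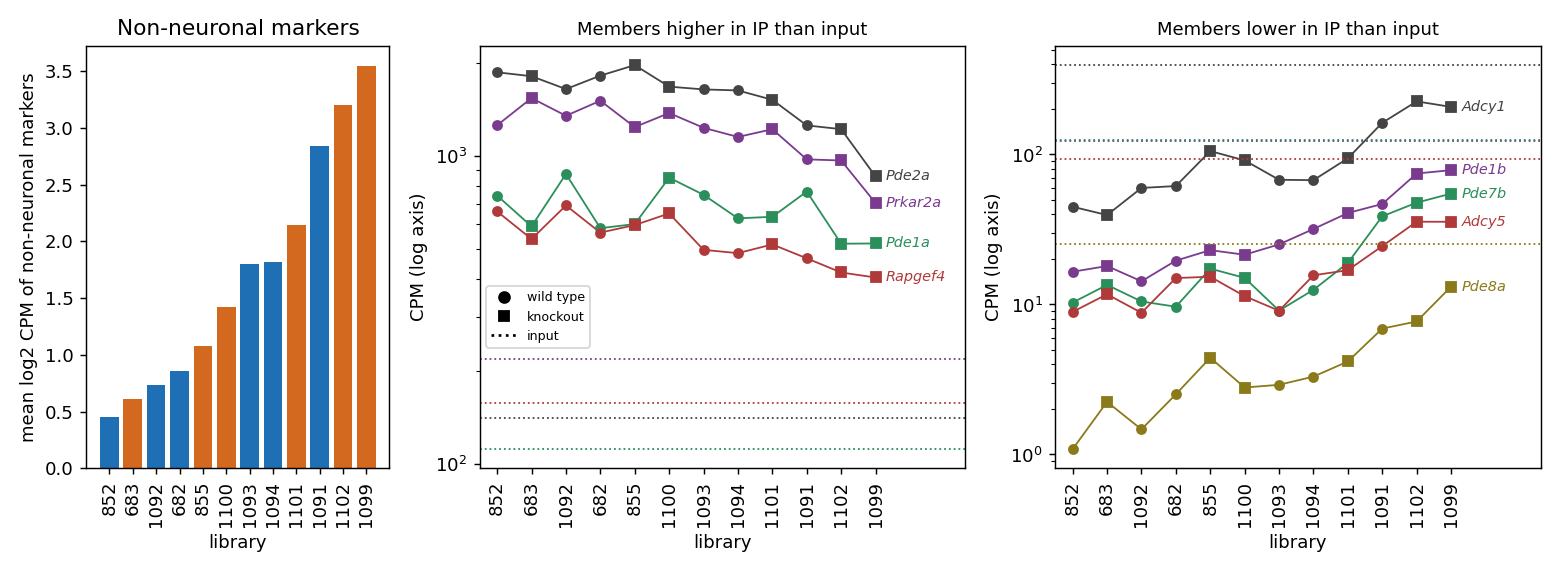
Libraries ordered by their non-neuronal score (left bars, mean log2 CPM, blue for wild type and orange for knockout). The other panels show the CPM (log axis) of the 4 members enriched in IP and of 5 of the 9 depleted members in the same order. Circles mark wild type, squares knockout and dotted lines the input. Adcy1, Pde1b, Pde7b, Adcy5 and Pde8a are highest in the 3 rightmost libraries, and Pde2a, Prkar2a and Rapgef4 are lowest there. Of the depleted members not shown, Pde1c and Pde3a were also highest in these libraries, and Adcy7 and Crem were not.

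Without libraries 1091, 1099 and 1102, 0 members were called and 2, Pde7b and Pde10a, had an unadjusted p under 0.05 in edgeR. The number at an unadjusted p under 0.05 rested on single libraries. It was 8 without wild-type library 1091, 7 without knockout library 1100, 4 without knockout library 1101, 2 without library 682 or 683, and 0 without wild-type library 1093 or knockout library 1099. The share of all genes at an unadjusted p under 0.05 moved too, from 2.16% higher and 0.901% lower in all 12 libraries to 5.96% and 1.18% without 1091, 4.92% and 1.55% without 1100, and 0.899% and 0.843% without 1099. It was 2.89% and 1.06% without 1101, 2.48% and 1.18% without 682, 2.47% and 1.17% without 683, and 1.15% and 0.623% without 1093. Without 1091, 1099 and 1102 together it was 2.02% and 0.941%.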

How the data were processed

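The deposited values were raw read counts per gene symbol that the authors made for each library. The build was mm10 and the tools STAR 2.3.0e, HTSeq and DESeq2, per the submitters' processing notes, which name neither annotation nor strand setting. RNA was amplified before library preparation, per the labels' protocols. Summary lines (alignments outside genes, 9.44% to 16.6% per library, not unique, 25.2% to 53.2%, or ambiguous) and entries naming no gene were left out. Genotypes were compared over the 23857 symbols common to the 12 IP libraries, with edgeR 4.0.16 in R 4.3.3 (filterByExpr with a minimum count of 10 and total of 15, TMM, robust quasi-likelihood, library set as a term, Benjamini-Hochberg over all genes, threshold 0.05, two-sided). IP and input were compared on CPM plus 1 over the 22682 symbols of all 13 libraries. RPKM used the union of GENCODE M21 exons on GRCm38, which gave a length for 22148 symbols and for all members. Tests were checked on simulated data. DESeq2 1.42.0, other scalings, filters, pseudocounts, folds and left-out libraries were tried. Library values are given for members past the fold rule, the highest of each family and the 5 with the smallest p; in neighbouring lists, for the most abundant gene and those past a threshold. Members and lists were chosen with earlier results of these data known. No replicate numbers pair the libraries; the library set groups 682 with 683 and 852 with 855.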

Additional observations from a re-analysis of the deposited data

Results flagged for a closer look

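In 6 of 76 groups of 6 libraries (38 members in each genotype), the highest or lowest library stood apart from the other 5 by Dixon's test, which chance alone does in about 1 in 20 groups. The groups reuse the same libraries, so they are not independent of each other. No such count was made over all genes, so it is not particular to the members. Wild-type library 1091 was the highest for Adcy1 (162.6 CPM, the others 44.8 to 67.8), Pde4b (133.5 CPM, the others 35.8 to 52.7), Pde7b (38.7 CPM, the others 9.10 to 12.5) and Pde10a (87.6 CPM, the others up to 50.8). Knockout library 1100 was the highest for Pde1a (851 CPM, the others 520 to 635). Knockout library 855 was the lowest for Crem (4.34 CPM, the others 7.03 to 8.57).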

How the results depend on the processing

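No member was called between genotypes under any of the 23 alternatives. The 2 genes called by edgeR became 12 with DESeq2, 1 with a filter of 1 CPM in 6 libraries, 0 in the later libraries only, 1 without libraries 1091, 1099 and 1102, and 0 to 2 without single libraries (0 without 683). The 1 member at an unadjusted p under 0.05 became 4 with DESeq2, 3 in the earlier libraries only, 2 without libraries 1091, 1099 and 1102, and 0 to 8 without single libraries (7 without 1100, 4 without 1101, 2 without 682 or 683). Over all genes, 3.46% were higher and 1.1% lower with DESeq2, and 1.88% and 2.87% in the earlier libraries only. The shares were 2.02% and 0.941% without libraries 1091, 1099 and 1102. Without single libraries they ran from 0.899% to 5.96% higher and from 0.57% to 1.55% lower. The 9 depleted members became 3 with a fold of 3 (5.45% of all genes) and 4 in knockout IP (7.11%), and 9 to 11 without single libraries (11.2% to 14.5%). They became 13 with a fold of 1.5 (17.2%), 6 with 5 CPM added (7.66%), 8 with a minimum of 10 CPM (10.2%) and 7 with TMM scaling (8.14%). The 4 enriched members became 6 with a fold of 1.5 (8.33%) or TMM scaling (6.24%), 3 with a fold of 3 (2.39%) and 5 in knockout IP (3.41%).

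Signs turned for some members, given here for the 20 members with library values. With the non-neuronal score added to the model the log2 difference was -0.0759 for Pde1c, 0.0136 for Pde2a, -0.577 for Pde3a, 0.0702 for Prkar2a, 0.0246 for Pkia, 0.0504 for Rapgef4 and -0.177 for Akap5, and the sign turned for 10 other members too, among them Pde4b (-0.14), Rapgef3 (-0.31), Adcy3 (-0.06) and Pkib (0.27). In the earlier libraries only it was 0.0246 for Pde2a, -0.291 for Pde3a, 0.00508 for Prkaca, 0.108 for Pkia and -0.177 for Akap5. Without libraries 1091, 1099 and 1102 it was -0.458 for Pde3a, 0.0339 for Prkar2a, 0.1002 for Pkia and -0.158 for Akap5. Without single libraries it was -0.126 (852, 855), -0.0361 (1092), -0.0398 (1094), -0.0908 (1099) and -0.206 (1102) for Pde3a, 0.00627 for Prkar2a and -0.0506 for Akap5 (1099), and 0.0136 for Pkia and 0.00415 for Rapgef4 (1092). The cause was not tested.

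The library set term already compares 682 with 683 and 852 with 855 within their sets, and without it 2 genes and 0 members were called. No paired analysis was possible within the 8 later libraries because the labels carry no replicate numbers that tie them across genotypes. Members with means under 5 CPM in IP, among them Adcy4, Adcy7, Pde1c, Pde3a and Pde4c, rest on few counts, and the lone input limits every ratio to it.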
